A study of Rattus norvegicus with 125 samples.

Results

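Expression of 10 genes of the lung lining was followed in rats that had breathed phosphine: the surfactant proteins Sftpa1, Sftpb, Sftpc and Sftpd, the lamellar body and processing genes Abca3, Lamp3 and Napsa, the alveolar type 1 genes Ager and Aqp5, and the club cell gene Scgb1a1. The members were the named genes that the platform annotation pairs, 1 symbol to a probe set, with probe sets of the array. All 10 were found among the 13439 genes so annotated, each represented by its brightest probe set over the arrays of a tissue. Sftpa1, Sftpb and Abca3 had 2 probe sets and the others 1. Their NCBI Gene identifiers are 24773 (Sftpa1), 192155 (Sftpb), 50683 (Sftpc), 25350 (Sftpd), 302973 (Abca3), 303801 (Lamp3), 60575 (Napsa), 81722 (Ager), 25241 (Aqp5) and 25575 (Scgb1a1). Phosphine (PH3), a gas used against pests in stored grain, blocks mitochondrial respiration. Adult male Sprague-Dawley rats were exposed whole-body to PH3 at 387 ppm for 40 min (15480 ppm×min) or to Air. They were killed by exsanguination under ketamine and xylazine, which all groups received, and RNA was taken from frozen, powdered whole organs. Lung gave 21 arrays from 21 rats: 2 Air and 4 PH3 rats at 3 h after exposure, 4 and 4 at 24 h, and 4 and 3 at 1 week. Brain (32 arrays), heart (29), kidney (32) and liver (11) served as reference, at 1, 3, 6 or 24 h after the same exposures. A lung array is a piece of whole lung, so fewer cells of a type and less RNA per cell cannot be told apart.

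Alveolar type 2 cells make surfactant, a film of phospholipid and proteins that lowers surface tension in the alveolus, and store it in lamellar bodies. Sftpb and Sftpc encode the small hydrophobic proteins that spread the film, and Sftpa1 and Sftpd encode collectins, lectins of innate defence. Abca3 carries phospholipid into lamellar bodies, Lamp3 is a membrane protein of these and other lysosome-related organelles, and the aspartic protease napsin A, from Napsa, takes part in processing of pro-surfactant protein B. Ager (RAGE) and Aqp5 (a water channel) mark the flat alveolar type 1 cells across which gas is exchanged, although Aqp5 is also made by airway gland and some type 2 cells. Scgb1a1 is the secretoglobin of club cells in the small airways.

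NKX2-1 and FOXA factors are textbook regulators of surfactant and club cell genes. The promoters of 1 surfactant gene, 1 club cell gene and Aqp5 are given here to show how members with and without their motifs differ. RefSeq promoters of the rat build GRCr8, 300 bases each from 250 before to 50 after the gene start, were matched for 7 of the 10 genes, and Sftpc, Sftpd and Napsa had no match. Each was searched on both strands for CTCAAG, a core of NKX2-1 sites, and for TNTTTNC, a core of FOXA sites, which 15.8% and 54.9% of 33469 promoters hold. Sftpb held 2 CTCAAG and 1 TNTTTNC match, and Scgb1a1 held 1 and 4. Aqp5, the gene with the largest lung difference below, had 0 matches to either, and 82.3% of its bases were G or C against a median of 51.7% over all promoters. Sftpb lies on the plus strand at chr4:105917338-105917637, Scgb1a1 on the minus strand at chr1:215409637-215409936 and Aqp5 on the plus strand at chr7:132601278-132601577. Capitals mark the matches, and all 3 read 5′ to 3′.
Sftpb: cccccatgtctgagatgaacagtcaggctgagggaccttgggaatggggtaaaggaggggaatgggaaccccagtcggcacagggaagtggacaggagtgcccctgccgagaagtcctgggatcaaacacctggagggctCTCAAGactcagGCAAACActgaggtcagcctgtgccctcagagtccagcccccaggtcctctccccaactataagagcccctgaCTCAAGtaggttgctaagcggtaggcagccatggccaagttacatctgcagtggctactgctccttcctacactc
Scgb1a1: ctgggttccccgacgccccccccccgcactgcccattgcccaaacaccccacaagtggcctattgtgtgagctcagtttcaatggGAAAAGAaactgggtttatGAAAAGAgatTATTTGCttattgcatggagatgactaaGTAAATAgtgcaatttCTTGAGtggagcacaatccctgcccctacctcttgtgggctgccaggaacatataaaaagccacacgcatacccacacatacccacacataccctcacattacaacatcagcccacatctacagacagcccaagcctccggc
Aqp5: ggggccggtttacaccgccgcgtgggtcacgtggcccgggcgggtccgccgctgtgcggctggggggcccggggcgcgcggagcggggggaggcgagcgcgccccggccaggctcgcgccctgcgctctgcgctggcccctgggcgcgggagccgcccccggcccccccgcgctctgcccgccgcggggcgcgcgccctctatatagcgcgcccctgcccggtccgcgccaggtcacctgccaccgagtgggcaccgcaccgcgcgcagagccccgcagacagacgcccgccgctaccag
Of the other promoters, Lamp3 held 1 TNTTTNC match, and Sftpa1, Ager and Abca3 held 0 of either. Abca3 was also rich in G or C (72.3%), and its lung change at 3 h was -0.003. Whether promoter sequence bears on the lung changes was not tested. No match says only that these letters are not in this window.

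Levels are log2 signals after RMA, a summary that corrects background, sets all arrays to 1 distribution and combines the probes of a set. A difference of 1 is a doubling of signal. Changes are PH3 minus Air ± the standard error (SE) of a limma fit over the 21 lung arrays, with p-values adjusted by Benjamini and Hochberg over all 13439 genes. A gene was called at an adjusted p under 0.05. Correlations between lung arrays of a group ran from 0.953 to 0.993. The 3′ minus 5′ signal of actin, a sign of RNA integrity, ran from 2.01 to 3.74. Some lung arrays carried signal of other tissues. The median level of 4 skeletal muscle markers (4 of 6 measured) was 7.88 and 8.43 in the PH3 3 h rats 147 and 148 and 7.55 in the PH3 24 h rat 155, against 4.18 to 5.35 in the other arrays. The median of 7 hepatocyte markers (7 of 7 measured) was 6.37 in the Air 3 h rat 144, against 3.66 to 4.78 elsewhere. The median of 2 thymus and thyroid markers (2 of 6 measured) reached 6.92 on a PH3 3 h array, against at most 4.58 in the other lung groups. None of the 4 skeletal muscle, 7 hepatocyte and 2 thymus and thyroid genes was called at 3 h. The part of this tissue mixture in the lung results was not tested, beyond the values without rats 147, 148 and 144 given below.

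All 10 genes were higher in Air lung than in the mean of Air brain, heart, kidney and liver, as their label as lung genes says. The differences ran from 2.72 for Abca3 to 10.09 for Sftpc, with a median of 8.05 (adjusted p of at most 1.86e-53, limma over the arrays of all 5 organs), where 38.6% of all genes were higher in lung. Sftpc stood at 13.86 ± 0.06 (SD, n = 10 Air lung arrays) and Scgb1a1 at 13.52 ± 0.07, close to the highest value on an array, which lay between 13.98 and 14.12 in lung. Sftpc was itself the brightest probe set on 1 lung array, so a rise in either gene could be compressed. Sftpb stood at 12.86 ± 0.11 in Air lung and Sftpa1 at 12.57 ± 0.27. The organ medians of Sftpb ran from 3.65 in brain to 4.05 in heart, and those of Sftpa1 from 3.37 in brain to 3.61 in liver. The heart levels of Sftpa1 come from its other probe set, which was the brighter there, whereas the test between organs used the lung probe set throughout.

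Not every member was confined to lung. Napsa stood at 12.27 ± 0.12 (SD, n = 10) in Air lung and at a median of 12.59 over the kidney arrays, from 12.34 to 12.80. Against kidney alone it was the 1 member lower in lung, by a change of -0.33 (adjusted p = 0.00335, limma), while the other 9 were higher, where 36.2% of all genes were higher and 33.7% lower in lung than in kidney. Napsin A is known from kidney proximal tubule as well as lung. Abca3 stood at 11.21 ± 0.12 in Air lung, with organ medians of 9.46 in kidney, 8.96 in brain, 8.60 in liver and 6.85 in heart. The lowest lung array (10.99) lay above the highest kidney array (9.93). Ager had organ medians of 6.90 in heart, 5.58 in brain, 5.48 in kidney and 5.44 in liver, against 12.48 ± 0.08 in Air lung. Lamp3 had no array of the 4 other organs above 3.86, and its lowest lung array was 10.69.

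**Figure D1:**
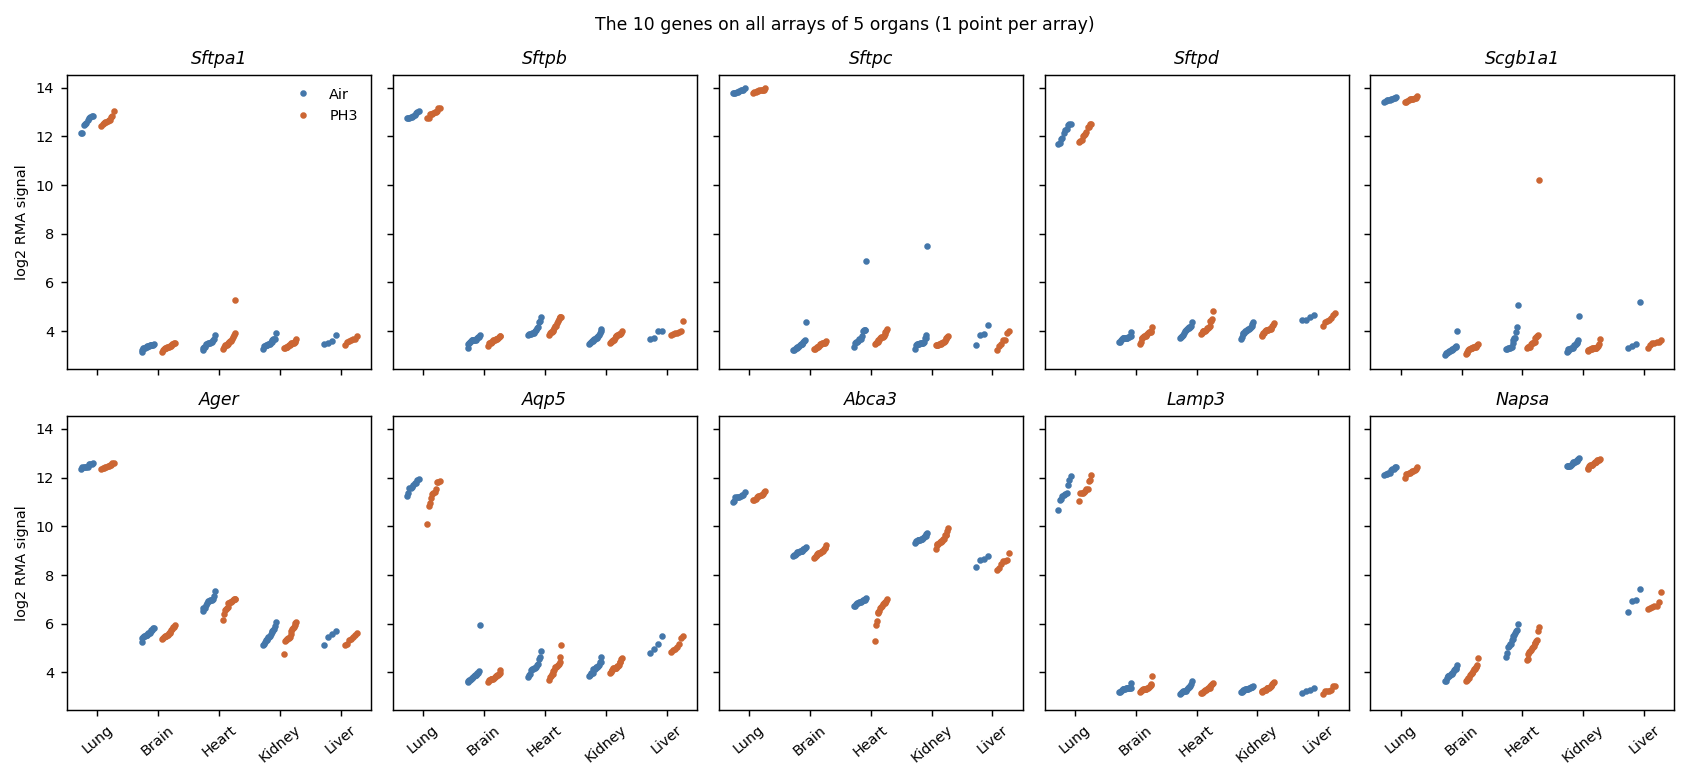
Level of each gene (log2 RMA signal) on the arrays of all 5 organs, 1 point per array in rising order within an organ, with Air in blue and PH3 in orange. Napsa is high in kidney (12.34 to 12.80) as well as in lung, Abca3 is intermediate in brain, kidney and liver, and single arrays of heart and kidney stand out for Scgb1a1 (10.20) and Sftpc (7.51).

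The first comparison asks whether the gas altered these genes in the lung, the organ it enters by. No member was called at 3 h, 24 h or 1 week. At 3 h, 40 of 13439 genes were called (0.298%), 21 higher (0.156%) and 19 lower (0.141%). At 24 h and at 1 week the background was 0 genes (0%). At an unadjusted p under 0.05 there was 1 member at 3 h (Aqp5), 0 at 24 h and 0 at 1 week, against 1587 (11.8%), 190 (1.41%) and 285 (2.12%) of all genes. The PH3 and Air arrays did not overlap for 4 of 10 members at 3 h, where 41.3% of all genes did so, for 0 at 24 h (0.908%) and for 0 at 1 week (1.69%). The median member change was 0.02 at 3 h, 0.04 at 24 h and 0.06 at 1 week, beside -0.07, 0.01 and -0.02 over all genes tested. The 95% confidence intervals of the 10 members lay between -1.20 and 0.95 at 3 h, -0.42 and 0.65 at 24 h, and -0.67 and 0.72 at 1 week. Leaving aside Aqp5, Lamp3 and Sftpd, which have the widest, those of the 7 other members lay between -0.42 and 0.40 at 3 h, -0.23 and 0.36 at 24 h, and -0.26 and 0.38 at 1 week. Those bounds are the outermost limits over the 7 members, so the interval of a single member can be narrower. Signal changes beyond them lie outside the intervals of all 7 for the brightest probe set of each gene. The other probe set of Sftpb had estimates beyond them at 3 h (0.49) and 1 week (0.56). For Sftpc and Scgb1a1, whose signal could be compressed, the bounds need not hold for RNA.

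**Figure D2:**
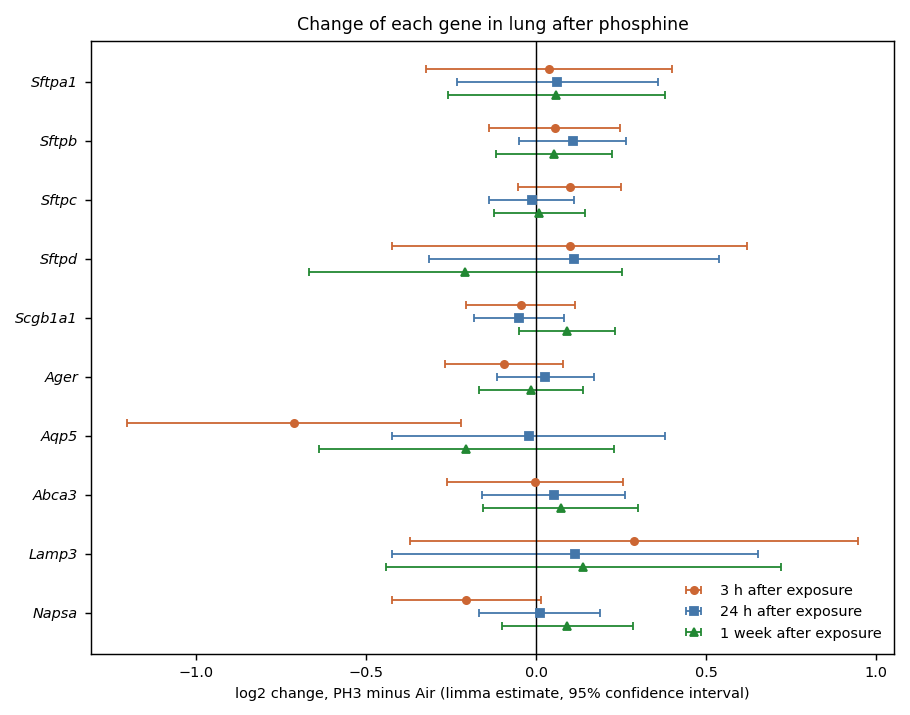
Change of each gene in lung (log2, PH3 minus Air, limma estimate) with its 95% confidence interval at 3 h, 24 h and 1 week. The interval of Aqp5 at 3 h (-1.20 to -0.22) is the 1 that leaves out 0, before adjustment over all genes.

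Among the hydrophobic surfactant proteins, Sftpb was 13.03 and 13.01 in the Air 3 h rats and 13.15, 13.15, 13.02 and 12.99 in the PH3 3 h rats. The groups overlapped, and the change was 0.05 ± 0.09 (adjusted p = 0.811, limma). At 24 h Sftpb was 12.85, 12.74, 12.80 and 12.76 in Air and 12.91, 12.77, 12.98 and 12.92 in PH3. Of the PH3 arrays, 3 of 4 lay above every Air array, with a change of 0.11 ± 0.08. At 1 week the change was 0.05 ± 0.08. Sftpc was 13.79 and 13.80 in Air at 3 h and 13.86, 13.91, 13.89 and 13.92 in PH3. All PH3 arrays lay above both Air arrays, as in 15.3% of all genes at these group sizes, and the change was 0.10 ± 0.07 (adjusted p = 0.575). Sftpc changes were -0.01 ± 0.06 at 24 h and 0.01 ± 0.06 at 1 week, with overlapping groups. A second Sftpb probe set of lower signal gave larger differences of 0.49 ± 0.32, 0.36 ± 0.26 and 0.56 ± 0.28 at the 3 times, none called (lowest adjusted p = 0.591).

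The collectins varied more from rat to rat. Sftpa1 was 12.80 and 12.76 in Air at 3 h and 12.60, 12.81, 12.82 and 13.04 in PH3, a change of 0.04 ± 0.17 (adjusted p = 0.927). At 24 h and 1 week its Air arrays spread from 12.14 to 12.85 and enclosed all PH3 arrays of those times. Its second probe set gave changes of 0.05 ± 0.18, -0.04 ± 0.15 and 0.15 ± 0.16. Sftpd was 12.30 and 11.90 in Air at 3 h and 12.09, 11.82, 12.37 and 12.51 in PH3. The groups overlapped at every time, with changes of 0.10 ± 0.25, 0.11 ± 0.20 and -0.21 ± 0.22 at 3 h, 24 h and 1 week. Rats 84, 133, 70 and 151, with the highest actin 3′ minus 5′ signals (3.39 to 3.74), had Sftpd levels of 11.68 to 11.92. Next came rats 137, 144 and 150 (3.38, 3.31 and 3.23), with 12.03, 12.30 and 11.90. Rats 179, 185 and 155, with the lowest signals (2.01, 2.22 and 2.26), had 12.46, 12.50 and 12.04. The part of RNA integrity in the spread of Sftpd was not tested.

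Of the lamellar body and processing genes, Abca3 was 11.27 and 11.21 in Air at 3 h and 11.07, 11.24, 11.33 and 11.31 in PH3, a difference near 0 (95% interval -0.26 to 0.25). Lamp3 was 11.27 in both Air rats at 3 h and 11.42, 11.55, 11.38 and 11.87 in PH3. All PH3 arrays lay above both Air arrays, as in 15.3% of all genes. The change of 0.29 ± 0.32 (adjusted p = 0.700, limma) was smaller than its SE. Lamp3 in the Air rats at 24 h ran from 10.69 to 12.07. Napsa was 12.34 and 12.30 in Air at 3 h and 11.98, 12.14, 12.14 and 12.20 in PH3. All PH3 arrays lay below both Air arrays, as in 26.0% of all genes, and the change of -0.21 ± 0.10 missed the threshold (unadjusted p = 0.064, adjusted p = 0.446, limma). Napsa in PH3 was level with Air at 24 h (0.01 ± 0.09) and 0.09 ± 0.09 above it at 1 week. The changes of Abca3 and Lamp3 at 24 h and 1 week lay between 0.05 and 0.14, and each interval included 0.

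Scgb1a1, the club cell secretoglobin, was 13.63 and 13.53 in Air at 3 h and 13.45, 13.58, 13.57 and 13.53 in PH3. Its changes of -0.05 ± 0.08, -0.05 ± 0.06 and 0.09 ± 0.07 at 3 h, 24 h and 1 week did not pass, and the groups overlapped at each time. Ager, the type 1 cell receptor, was 12.60 and 12.58 in Air at 3 h and 12.44, 12.44, 12.61 and 12.47 in PH3. Rats 147, 148 and 154 were below both Air rats and rat 152 above them, and the change was -0.09 ± 0.08 (adjusted p = 0.632). At 24 h and 1 week Ager differed by 0.03 ± 0.07 and -0.02 ± 0.07.

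**Figure D3:**
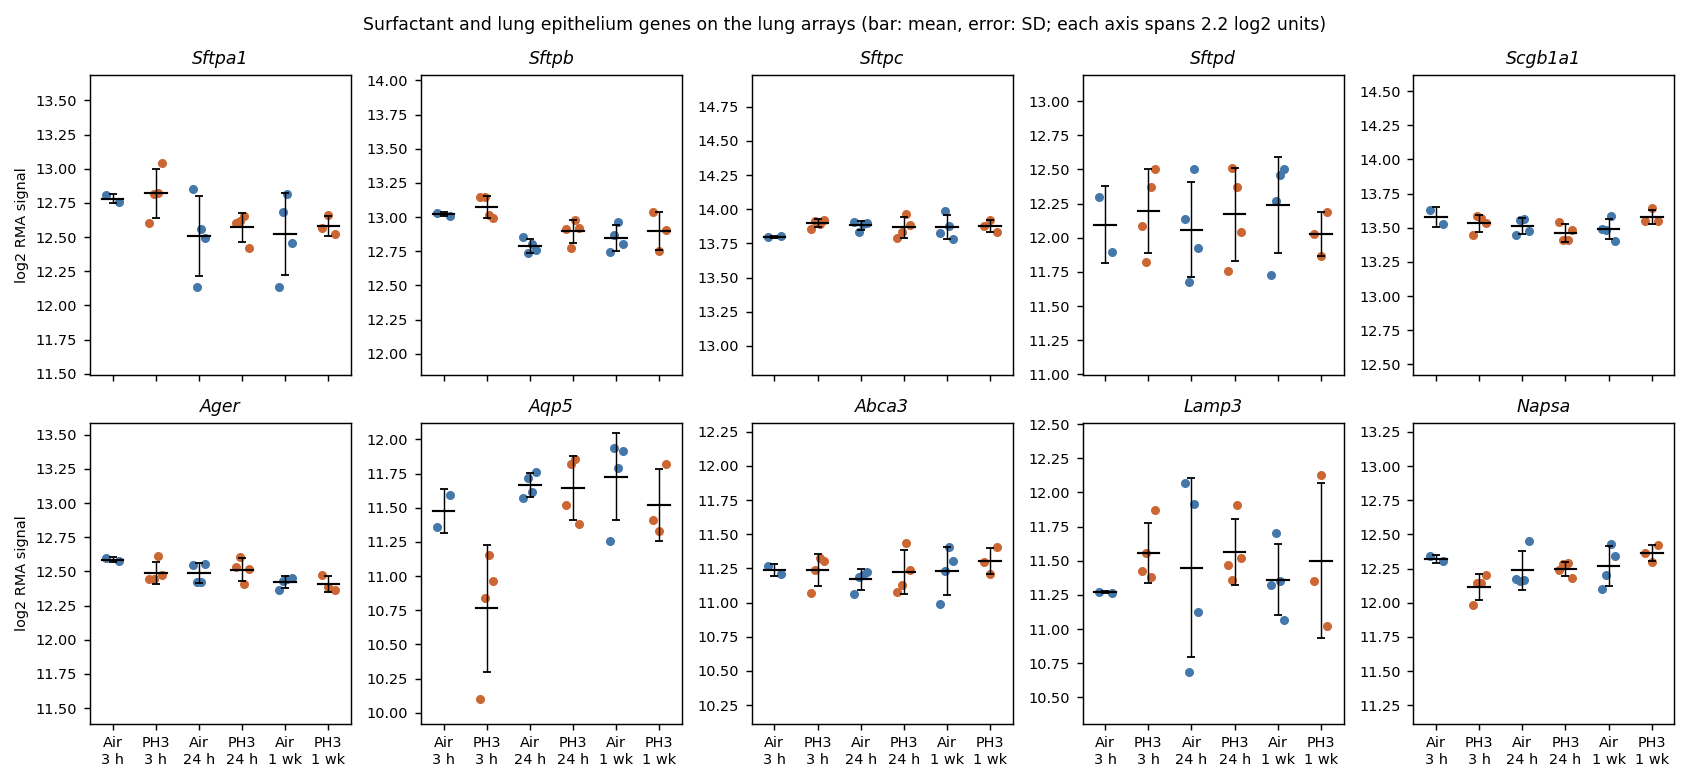
Level of each gene (log2 RMA signal) on the 21 lung arrays by exposure and time, 1 point per rat, with the group mean (bar) and SD (whisker), each panel spanning the same number of log2 units. Aqp5 in PH3 at 3 h (10.10 to 11.16) lies below all Air lung arrays, and the other panels show overlapping or close groups.

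Aqp5, the water channel, gave the largest difference of the 10 genes. It was 11.36 and 11.59 in the Air 3 h rats 144 and 150, and 10.10, 10.84, 11.16 and 10.96 in the PH3 rats 147, 148, 152 and 154. All 4 PH3 arrays lay below both Air arrays, as in 26.0% of all genes at these group sizes. The change was -0.71 ± 0.23 (95% interval -1.20 to -0.22), that is 0.611 times the Air signal. It did not pass over all genes (unadjusted p = 0.00677, adjusted p = 0.251, limma), and 6.93% of genes had a larger change in size. At 24 h Aqp5 was 11.57, 11.72, 11.62 and 11.76 in Air and 11.52, 11.82, 11.86 and 11.38 in PH3, a change of -0.02 ± 0.19. At 1 week it was 11.26, 11.94, 11.79 and 11.92 in Air and 11.41, 11.33 and 11.82 in PH3, a change of -0.21 ± 0.21. The 3 h difference was the largest of the 3 times, but a test of whether it depended on time did not pass (unadjusted p = 0.0958, adjusted p = 0.9999, limma F test).

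Because the Air 3 h group holds 2 arrays, PH3 at 3 h was also set against the Air arrays of all 3 times, a comparison chosen after these values were seen. No member was called as different between the Air times (0 of 13439 genes called, limma F test). With 2 Air arrays at 3 h this test cannot show that the times were alike. Mean Aqp5 in Air was 11.48 at 3 h, 11.67 at 24 h and 11.73 at 1 week, so pooling raised the control level. All 4 PH3 arrays of Aqp5 lay below all 10 Air lung arrays (11.26 to 11.94), as for 3.15% of all genes. The change was -0.86 ± 0.16 (95% interval -1.20 to -0.52) and was called (adjusted p = 0.00334, limma), as were 968 genes (7.20%), 675 of them lower (5.02%) and 293 higher (2.18%). Aqp5 was the 1 member called. Sftpb (0.19 ± 0.06, adjusted p = 0.073, limma) and Napsa (-0.16 ± 0.07, adjusted p = 0.159) were not called. Their 95% intervals of 0.06 to 0.32 and -0.31 to -0.01 also left out 0, and those of the remaining members included it. Time of sampling differs between these controls and the PH3 rats, so time and exposure are partly mixed in this comparison. Without rat 147, 148, 152 or 154 in turn, 297, 354, 970 and 494 of 13439 genes were called, with Aqp5 among them each time. Its changes ran from -0.99 without rat 152 to -0.64 without rat 147 (adjusted p = 0.00195 and 0.0212, limma). Without rats 147 and 148, whose arrays carry skeletal muscle signal, the change was -0.56 ± 0.17 and was no longer called (adjusted p = 0.221, 57 genes called). Against the Air 3 h rats alone it was then -0.42 ± 0.22 (adjusted p = 0.893, 1 gene called), and without rat 147 alone -0.49 ± 0.19. Without the Air rat 144, whose array carries hepatocyte signal, the change against the other Air 3 h rat was -0.83 ± 0.31 (adjusted p = 0.874), a comparison that takes the lone Air rat to vary like the other groups. Aqp5 was also called with array weights, which count each array by its spread (-0.65 ± 0.17, adjusted p = 0.0162, limma), where 16.1% of all genes were called. In the PH3 rats 152 and 154 the muscle marker medians were 5.35 and 4.33, against at most 4.97 in the Air lung arrays, and the cardiomyocyte marker medians 8.42 and 9.01, against at most 8.82. The part of these in the Aqp5 values was not tested.

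The same question was asked across organs, to see whether the lung change departed from the PH3 change elsewhere. The PH3 change in lung minus the mean PH3 change in brain, heart and kidney was called for 0 members at 3 h, where 155 genes were called (1.15%), and for 0 at 24 h, where no gene was (0%). For Aqp5 at 3 h this difference was -0.77 ± 0.30 (unadjusted p = 0.0125, adjusted p = 0.251, limma), and for the other members at 3 h it ran between -0.23 for Ager and 0.27 for Lamp3. In the 13 comparisons of PH3 with Air in brain, heart, kidney and liver, 0 members were called. Of all genes, 0.00744% were called in brain at each of 1, 3 and 6 h and 0.0298% at 24 h. In heart the shares were 0.0521%, 0.238%, 2.70% and 0% at 1, 3, 6 and 24 h, in kidney 0.223%, 0.104%, 0.126% and 0.0149%, and in liver at 6 h 0.238%. The lowest adjusted p belonged to Sftpb in heart at 3 h, which stood at 4.50 ± 0.13 (SD, n = 4) in PH3 and 3.93 ± 0.05 (n = 4) in Air, levels near the bottom of the scale (change 0.57 ± 0.14, adjusted p = 0.0691, limma).

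The genes differed in how much they varied between rats of a group. The pooled within-group SD was 0.06 for Sftpc and Scgb1a1, 0.07 for Ager, 0.09 for Sftpb, 0.11 for Napsa and 0.13 for Abca3. It was 0.21 for Sftpa1, 0.29 for Aqp5, 0.32 for Sftpd and 0.40 for Lamp3, beside a median of 0.25 over all genes. A share of 0.0893% of genes varied less than Sftpc, whereas 83.5% varied less than Lamp3. Sftpc and Scgb1a1 lay near the highest value on the array, so their small SD may understate how much their RNA varied. Ager had a similar SD while at least 1.40 below the array maximum. The part of compression in these SDs was not tested. After group means were subtracted, 34 of the 45 pairs of members correlated above 0 over the 21 arrays, with a median of 0.21. The pairs ran from -0.22 for Lamp3 with Napsa to 0.70 for Aqp5 with Abca3. Aqp5, Abca3 and Napsa correlated at 0.63 to 0.70 with one another, and Lamp3 at 0.64 with both Sftpa1 and Sftpc. Scgb1a1 correlated with no other member beyond 0.18 in size. These values describe 21 arrays that share labelling and normalisation.

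**Figure D4:**
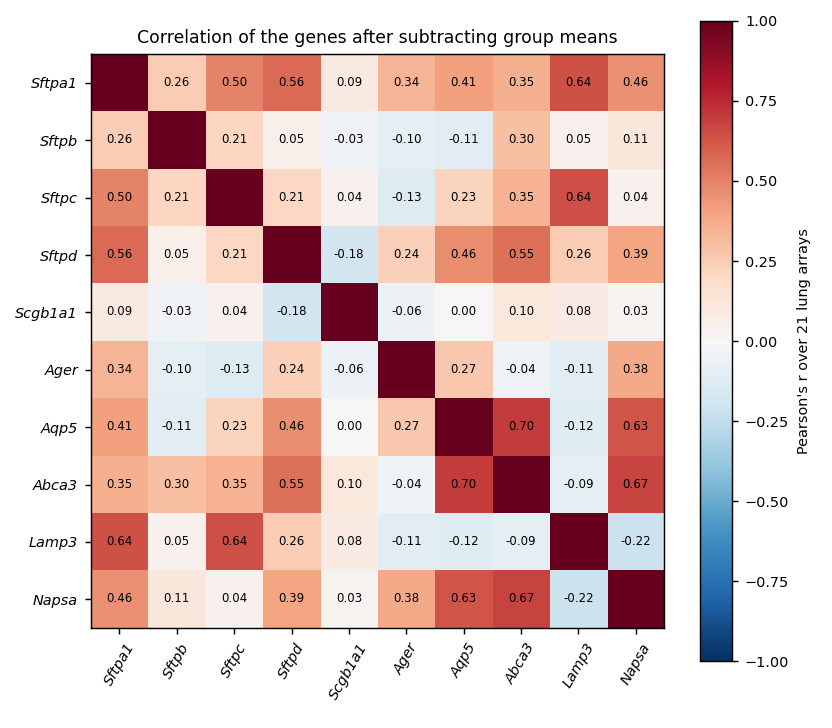
Pearson's r between the 10 genes over the 21 lung arrays after subtracting group means, from blue (-1) to red (1). Aqp5, Abca3 and Napsa have r of 0.63 to 0.70 with one another, Lamp3 has 0.64 with Sftpa1 and Sftpc, and Scgb1a1 stands near 0 with all others.

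For each member the 3 genes most like it by this measure were named as a description. Aqp5 went with Unc13d (r = 0.92), Wnt7a (0.89) and Dnph1 (0.87). Wnt7a, a secreted Wnt ligand, was 7.82 and 7.97 in Air at 3 h and 4.91, 6.51, 7.29 and 7.12 in the PH3 rats 147, 148, 152 and 154. Rat 147 was the lowest of all 21 lung arrays for both genes. Lamp3 went with Slc6a14, Mrps9 and Apool, each at 0.97. Napsa went with Ttpal (0.88), Lpcat1 (0.84) and Stmn4 (0.84). Lpcat1 encodes an enzyme of surfactant lecithin synthesis. Abca3 went with Msrb2 (0.84), Mrpl58 (0.82) and Dag1 (0.82). Sftpa1 went with Tshr (0.84), Pdia3 (0.82) and C4bpa (0.82), and Sftpc with Tfec (0.85), Lgmn (0.82) and Adk (0.80). Sftpd went with Snrpd3 (0.87), Stk38 (0.86) and Arpc1b (0.84). Sftpb reached 0.75 with Cfap45, 0.75 with Rnf32 and 0.74 with Prl8a5. Ager reached 0.77 with Gpr50, 0.77 with Wwc1 and 0.76 with Tanc2, and Scgb1a1 0.84 with Nudt8, 0.76 with Sema6a and 0.75 with Zp2.

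Lists of related lung genes gave the members' surroundings. At 3 h, 1 gene of the 10 lists was called, Atp1b1 of the ion and water transport list, which encodes the beta subunit of the sodium pump that drives fluid out of the alveolus. It was 10.39 and 10.70 in Air at 3 h and 11.78, 12.04, 11.95 and 12.06 in PH3, so that the groups lay far apart. The rise was 1.41 ± 0.15, a 2.66-fold higher signal (adjusted p = 0.000131, limma), and it was the lowest p-value of all 13439 genes. Without rats 147 and 148 the change of Atp1b1 was 1.46 ± 0.18 (adjusted p = 0.00265, limma), and it was then the 1 gene called. Atp1b1 was also above Air by 0.38 ± 0.12 at 24 h and 0.55 ± 0.13 at 1 week, neither called (adjusted p = 0.9999 for both). In PH3 rats 147, 148, 152 and 154 high Atp1b1 thus stood beside the low Aqp5 values given above. Of the 11 measured genes of that list (of 12), 10 had a positive change at 3 h, with a median of 0.43 against -0.07 over all genes. The water channels Aqp1, Aqp3 and Aqp4 had changes of 0.17, 1.09 and 0.59, and the sodium channel subunits Scnn1a, Scnn1b and Scnn1g 0.43, -0.56 and 0.32, none of them called.

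The other type 2 cell list, which also holds Sftpa1, had 0 of 17 measured genes called at 3 h and a median change of -0.07. Its phosphate transporter Slc34a2 stood at 12.90 ± 0.06 (SD, n = 4) in PH3 and 12.86 ± 0.04 (n = 2) in Air. Type 1 cell genes had 0 of 12 called and a median near 0. They ran from Igfbp2 at -0.46 to Krt7 at 0.42, with Pdpn at -0.23, Hopx at 0.21 and Cav1 at 0.25. At an unadjusted p under 0.05 (limma) there were 3 type 1 genes and 0 to 3 genes of each other list, where 11.8% of all genes were. Lipid synthesis genes had 0 of 18 called (median 0.01, from Scd at -0.64 to Elovl6 at 0.63), and processing and clearance genes 0 of 11 (median 0.0016). Of 19 measured epithelial transcription factors 0 were called. Nkx2-1, the factor whose motif was searched above, differed by -0.26, Foxa2 by -0.20 and Cebpd by 1.12 ± 0.33 (adjusted p = 0.184, limma). Club and secretory genes had 0 of 14 called (median 0.05), ciliated genes 0 of 9 (median -0.36), junction and keratin genes 0 of 12 (median -0.17) and repair and stress genes 0 of 11 (median 0.06). At 24 h and 1 week 0 genes of any of the 10 lists were called, as was no gene at all (0%), with list medians between -0.10 and 0.23. At 1 week 4 of 17 other type 2 genes and 3 of 18 lipid synthesis genes had an unadjusted p under 0.05 (limma). Of all genes, 2.12% did so at 1 week. The other lists had at most 2 such genes at 1 week, and each list at most 1 at 24 h.

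**Figure D5:**
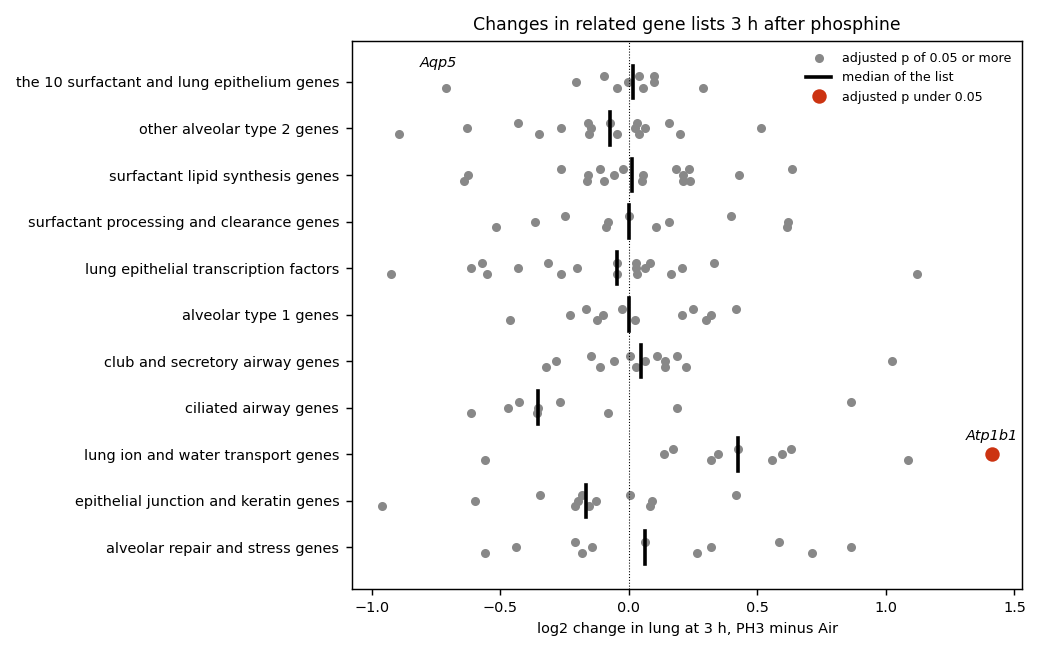
Change at 3 h (log2, PH3 minus Air) of each measured gene in the 10 members and in 10 lists of related lung genes, 1 point per gene, with the list median as a black bar. Atp1b1 at 1.41 (red) is the 1 gene with an adjusted p under 0.05, and Aqp5 at -0.71 is the lowest of the 10 members.

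Of the markers of other cell types in lung at 3 h, none given here was called. The 6 measured T and B cell markers (of 8) were all lower, with a median change of -0.58 and an array median of 6.63 to 7.35 in PH3 against 7.44 and 8.03 in Air. The 5 measured alveolar macrophage markers (of 10) had a median change of 0.62, 3 of them positive and 2 negative, from -0.49 for Cd68 to 1.497 for Mrc1, with array medians of 9.64 to 10.22 against 8.65 and 9.31. The 6 measured cardiomyocyte markers (of 7) had a median change of 0.01, 4 of them positive and 2 negative, and their array medians ran from 7.44 to 10.56 in PH3 and from 8.19 to 8.33 in Air, and the highest value was in rat 147. Their part in the member values was not tested.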

How the data were processed

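The authors deposited log2 values of 31139 probe sets for arrays from 48 rats. Per the submitters' processing notes the tools were Expression Console of Affymetrix, RMA and Partek, with no version stated. Background and quantile steps of RMA can compress large differences. Values lay between 2.60 and 14.41 (array medians between 5.08 and 5.52). The number of arrays limits precision. The platform annotation gave 1 symbol to 19069 probe sets, several to 572 and none to 11498. Sequences came from RefSeq promoters (GRCr8).

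Groups of tissue, exposure and time each had a coefficient in limma 3.58.1 (R 4.3.3), with eBayes and a trend in the mean, separately for lung and each organ and over all arrays for comparisons between organs. Benjamini-Hochberg adjustment of p ran over all genes of a comparison. Rats were housed singly per the labels, and exposure runs are not given in the sources used here. PH3 and Air rats differ, so no lung comparison is paired. Across organs the same number is the same rat, and the correlation of arrays of a rat was 0.0055. Scripts were tested on simulated data. By rule, the named genes were the 10 members, called genes of the lists and the 3 most correlated genes per member. Other genes of the lists were chosen for naming after their values were seen. Members and lists were chosen with earlier results of these data known. Alternatives were array centring, a filter on dim genes, array weights, no trend, all probe sets, fewer arrays, leaving out each lung array and the rat as a block. Added after seeing the data were single reference organs, Air of all 3 times as control and leaving out arrays with muscle signal. Array weights were limma's gene-by-gene estimate. Plots used matplotlib 3.10.9 in Python 3.11.15.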

Additional observations from a re-analysis of the deposited data

Results flagged for a closer look

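In 280 groups of 4 arrays, 1 gene each, 23 held an array far from the other 3 by Dixon's test at 95%, where chance gives about 1 in 20. Only 1 was in lung: Napsa was 12.45 in the Air rat 151 at 24 h, against 12.16 to 12.17 in the others.

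In the other organs, some arrays carried 1 or 2 lung genes high above the organ level. Scgb1a1 was 10.20 in the PH3 1 h heart of rat 116, where the others were 3.37 to 3.78. Sftpc was 7.51 in the Air 6 h kidney of rat 156 (others 3.29 to 3.53) and 6.88 in the Air 1 h heart of rat 96 (others 3.67 to 4.04). Aqp5 was 5.95 in the Air 6 h brain of rat 126 (others 3.63 to 3.89), and Sftpa1 was 5.29 in the PH3 1 h heart of rat 109 (others 3.25 to 3.58), where heart levels of Sftpa1 come from its second probe set. Scgb1a1 was 5.196 in the Air 6 h liver of rat 156 and 5.09 in the Air 3 h heart of rat 150, where Sftpc was 4.07. Over the 1040 member values of the 104 arrays of these organs, 8 lay at least 1 above the organ median, on 7 arrays. On 6 of these 7 arrays a single member passed this cut-off, and the kidney of rat 156 had 2, Sftpc and Scgb1a1 (4.62). The other members on these arrays differed from the organ median by -0.74 to 0.76. The upper end was Sftpd in the heart of rat 116 (4.83), the highest of the heart arrays. Aqp5 in the liver of rat 156 (5.49) was the highest of the liver arrays. Both exposures were among the 7 arrays. The Air 6 h rat 156 recurred: its arrays were the highest of their organ for both Sftpc and Scgb1a1 in brain (4.38 and 4.002), kidney (7.51 and 4.62) and liver (4.25 and 5.196).

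Smaller gaps near the bottom of the scale were found for Scgb1a1 in Air 6 h brain (4.002, rat 156), PH3 6 h heart (3.57, rat 128) and PH3 24 h kidney (3.67, rat 91), and for Lamp3 in Air 6 h brain (3.56, rat 138) and PH3 6 h liver (3.28, rat 140). Sftpb stood apart in Air heart at 3 h (3.999, rat 97) and 6 h (4.37, rat 132), and Sftpa1 in Air 6 h heart (3.37, rat 126). Sftpd was low in PH3 kidney at 24 h (3.86, rat 85) and 1 h (3.78, rat 116). Ager stood apart in Air 6 h heart (6.52, rat 156) and PH3 24 h kidney (5.87, rat 91). Abca3 was 7.04 in the Air 1 h heart of rat 163 and 5.28 in the PH3 6 h heart of rat 141, where the others were 6.71 to 6.93.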

How the results depend on the processing

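In lung at 24 h and 1 week 0 members were called under any other setting tried, and at 3 h 0 were called except with array weights and with Air of all 3 times as control, also without each PH3 rat in turn, each giving 1 member, Aqp5. With array weights it was -0.65 ± 0.17 (adjusted p = 0.0162, limma), but 2170 genes (16.1%) were then called against 40. These weights are limma's gene-by-gene estimate, chosen after seeing the data because the default REML estimate stopped before its tolerance for lung. With Air of all 3 times as control, chosen after seeing the data, 968 genes were called, and 297 to 970 without each PH3 rat in turn. Leaving out single lung arrays gave 0 members at each lung time and 10 to 10 higher in Air lung, while the genes called at 3 h ran from 2, without the Air rat 144, to 72, without the PH3 rat 152. The count at 3 h was 22 after centring, 520 with the 6 arrays alone, 13 without rat 147 and 16 without rat 148. Aqp5 at 3 h ran from -0.99, without rat 152 and with Air of all 3 times as control, to -0.42, without rats 147 and 148. Of 380 member changes under other settings, 41 turned sign while uncalled, and no called value reversed. Without the dimmest genes by mean over the arrays of all organs, 3 members were higher in Air lung, since the filter removed the other 7. With the rat as replicate block 10 members were higher in Air lung, and 0 and 0 differed in PH3 change between lung and the other organs at 3 h and 24 h, so the block changed no call. Whole-lung arrays, 2 Air rats at 3 h and signal of other tissues on some arrays limit what the lung values can show.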
